A study of Mus musculus with 24 samples.

Results

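Cytochrome P450 genes were examined in RNA-seq read counts from whole kidneys of 24 mice. They were taken as the rows of the count table whose symbol was Cyp followed by a family number, an optional letter and an optional number, without pseudogenes. The vitamin D genes Cyp24a1 and Cyp27b1 and the steroid genes of the adrenal cortex (Cyp11a1, Cyp11b1, Cyp11b2 and Cyp21a1) were left out by name. Of 54532 rows, 95 matched the symbol pattern and 89 remained after the 6 exclusions. A gene was kept at a mean of at least 0.5 CPM (the read count scaled to the library's total) over the 24 libraries, which left 37 genes: 16 Cyp2, 11 Cyp4 and 10 of other families. The other 52 were below that limit. The symbol pattern does not take symbols that end in a second letter, such as Cyp4a12a.

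P450 enzymes are haem proteins that insert an oxygen atom into fatty acids, sterols, retinoids, vitamin D and foreign compounds. Most sit in the endoplasmic reticulum and receive electrons from the reductase Por, and a few sit in mitochondria and use the ferredoxin Fdx1. In the kidney the proximal tubule holds much of the family, including epoxygenases (Cyp2j, Cyp2c) and fatty acid hydroxylases (Cyp4a), which turn arachidonic acid into lipid mediators that act on vessels and salt transport.

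The mice were C57BL/6 by the labels (C57BL/6 J in the study's methods) and 18 days old, and every mouse had 1 Pkd1 allele with the RC missense change, in the polycystin-1 gene. The second Pkd1 allele was intact in RC/+ mice (floxed, without Cre, labelled control) and was inactivated by Ksp-Cre, a Cre driven in kidney tubule cells, in RC/- mice (labelled cystic). D18 and D53 mice had, in addition, a deletion of the miR-17 binding motif from the RC allele. Each edited line went back to 1 founder, founder 3 for D18 and founder 2 for D53. Each of the 3 noncystic groups held 3 mice and each of the 3 cystic groups 5, with 1 library per mouse, and Cre and the cystic genotype cannot be told apart. In whole kidney, fewer cells of a type and less RNA per cell cannot be told apart.

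Library totals ran from 20.4 to 30.8 M counts (M, mega). Pkd1 counts do not separate the alleles: the gene was at 49.9 to 51.5 CPM in RC/+, 51.9 to 65.2 CPM in RC/-, and 38.4 to 71.4 CPM in the 4 edited groups. The library labelled RC/- replicate 16 stood apart: Cyp11a1, the first enzyme of steroid synthesis in the adrenal cortex, was at 318.2 CPM there and at 1.28 CPM or less in the other 23, and all 8 adrenal cortex markers were at their highest in it (Star, the cholesterol carrier of steroid-making cells, at 678.1 against at most 8.94 CPM). Calls that changed without that library are named beside the results. Skeletal muscle markers summed to 161 to 213 CPM in RC/- D53 and to 8.81 to 196 CPM in RC/- D18, against 7.35 to 11.9 CPM in the other groups. They were raised in the libraries numbered 20 to 27, which hold all of RC/- D53 and 3 of RC/- D18. These 8 libraries were known as a set from earlier results.

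The segment that defines a P450 is the loop around the cysteine that binds the haem iron. A loop with the family pattern was found in the coding sequence of 35 of the 37 genes, and Cyp2s1 and Cyp20a1 had none by the pattern searched. The pattern was phenylalanine, 2 free residues, glycine, then 3 free residues, cysteine, a free residue and glycine, read on 10 codons and 30 bases. The loops below are a selection. It holds the 5 genes with the highest mean CPM and some of those with large differences between groups. Others with large differences, such as Cyp2d12 and Cyp2a5, are not shown. Cyp2j7 and Cyp2d22 stand beside close relatives. The loops are given 5′ to 3′ as GENCODE M21 coding sequence on GRCm38, with the codon of the haem-binding cysteine in capitals.
Cyp2j5: ttctcaatgggaaaaagagctTGTcttgga
Cyp2j11: ttctcaatgggaaagagagctTGCcctggg
Cyp2j7: ttctcaatgggaaagagagctTGCcctgga
Cyp2d26: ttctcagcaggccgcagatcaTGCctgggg
Cyp2d22: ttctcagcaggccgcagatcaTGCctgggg
Cyp2c23: ttctccctcgggaagcgatccTGTgttggc
Cyp4a10: ttctcaggaggagccaggaacTGCattggg
Cyp4a31: ttctcaggaggagccaggaacTGCattggg
Cyp4a14: ttctcaggaggatcaaggaacTGCattggg
Cyp4f39: ttctcagcaggtcccaggaatTGCatcggg
Cyp4f18: ttctcggctgggcccaggaacTGCatagga
Cyp7b1: tttggactcggaacaagcaaaTGTccaggg
Cyp1b1: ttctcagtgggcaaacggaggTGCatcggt
The Cyp2j5 loop lies at chr4:96629627-96630720, minus strand, the Cyp4a14 loop at chr4:115487299-115489805, minus strand, the Cyp4f39 loop at chr17:32491873-32492314, plus strand and the Cyp7b1 loop at chr3:18072634-18072663, minus strand. The Cyp2j5, Cyp4a14 and Cyp4f39 loops are coded by 2 exons with an intron between them, and the Cyp7b1 loop by 1 exon. The 35 loops comprised 33 distinct sequences. Cyp4a10 and Cyp4a31 had the same loop, as did Cyp2d22 and Cyp2d26, and the Cyp2j11 and Cyp2j7 loops differed at 1 base. Over the whole coding sequence, Cyp4a10 and Cyp4a31 were 96.6% identical, with a longest identical stretch of 186 bases, while Cyp2j11 and Cyp2j7 were 87.3% and Cyp2d22 and Cyp2d26 78.5% identical. Reads that map equally to both genes are not counted by the counting mode the study names, so the levels of Cyp4a10 and Cyp4a31 are uncertain as single genes.

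Many of the genes lie next to each other. Of the 37, 20 were in 5 groups of 3 to 5 genes with gaps under 1 Mb: Cyp2j on chromosome 4 (5 genes over 469 kb), Cyp4a with Cyp4b1 on chromosome 4 (4 genes over 161 kb), Cyp2d on chromosome 15 (3 genes over 424 kb), Cyp4f on chromosome 17 (5 genes over 495 kb), and Cyp2a5, Cyp2f2 and Cyp2t4 on chromosome 7 (3 genes over 323 kb). Exons shared with another gene were 13.5% of exon bases in Cyp2f2, 10.4% in Cyp2u1, 9.76% in Cyp4f18 and 8.22% in Cyp4v3, and 5.27% or less in the other 33. The strand setting of the counts is not stated, so reads in those bases could come from either gene or be left uncounted.

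A few genes held most of the P450 reads. Cyp2j5, an arachidonic acid epoxygenase, took 31.6% of the summed CPM of the 37 genes, and with Cyp2d26, Cyp4a14, Cyp4a10 and Cyp4a31 the share was 76.2%. Per kb of exon, over all libraries, Cyp2j5 was at a mean of 340 CPM per kb, Cyp2d26 at 228, Cyp4a14 at 133, Cyp4a10 at 106 and Cyp4a31 at 59.2. On the same scale the highest genes of the other families were Cyp51 at 14.8, Cyp20a1 at 12.3 and Cyp1b1 at 10.3. Just inside the limit were Cyp2j7 (mean 0.531 CPM) and Cyp2t4 (0.653 CPM), and just outside it Cyp26a1 (0.410 CPM) and Cyp2b19 (0.327 CPM). A group mean of at least 0.5 CPM was reached by Cyp4f39 in the 3 cystic groups only, and by Cyp4f18 in RC/- and RC/- D18 only, so both genes entered through the groups in which they were high. Cyp2a5 and Cyp1a1 were below 0.5 CPM in RC/- only, and Cyp2j7 in RC/+ and RC/-.

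**Figure D1:**
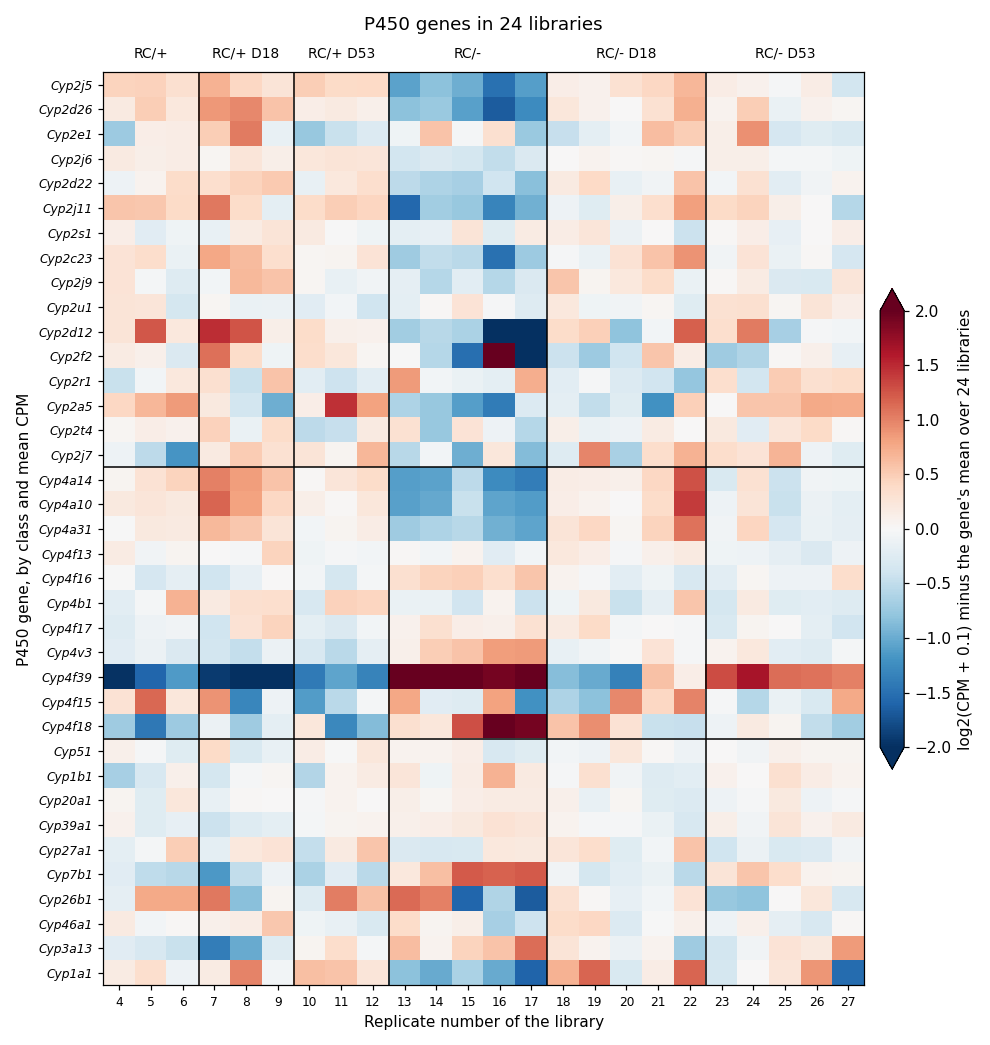
Heat map of the 37 P450 genes (vertical axis, by class and then by mean CPM) in the 24 libraries (horizontal axis, by group and replicate number). Colour is log2(CPM + 0.1) minus the gene's mean over all libraries, limited to 2 in either direction; the 5 RC/- libraries are low in Cyp2j5, Cyp2d26 and the 3 Cyp4a genes and high in Cyp4f39, and library 16 alone is high in Cyp2f2.

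The first comparison asks how P450 expression differed between RC/- kidneys, in which cells with Ksp-Cre lack a working second Pkd1 allele, and RC/+ kidneys. In RC/- against RC/+ kidneys, 8 of the 16 Cyp2 genes and the 3 Cyp4a genes fell, among them the 5 most abundant of the 37. Cyp2e1 and Cyp2s1, at means of 73.8 and 39.9 CPM over all libraries, were not called. Several genes of the Cyp4f, Cyp4v and sterol groups rose, as did Cyp1b1 and Cyp3a13. The sum of the 16 Cyp2 genes was 766 ± 102 CPM in RC/- (SD, n = 5) and 1762 ± 100.2 CPM in RC/+ (SD, n = 3), and the sum of the 11 Cyp4 genes 436 ± 70.7 and 840.4 ± 66.3 CPM. The 10 genes of other families summed to 233 ± 12.3 and 199 ± 12.3 CPM. For both Cyp2 and Cyp4 every RC/- library was below every RC/+ library, with 639 to 909 against 1681 to 1874 CPM for Cyp2 and 380 to 557 against 769 to 899.8 CPM for Cyp4. In the other families the RC/- libraries, at 219 to 252 CPM, were all above the RC/+ libraries, at 189.9 to 213 CPM. Library 16 was the highest of these, and Cyp1b1 alone averaged 70.7 CPM in RC/- against 49.04 CPM in RC/+. This gap was not tested, and scaling by total counts also gave a median log2 fold change of 0.14 over all genes.

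**Figure D2:**
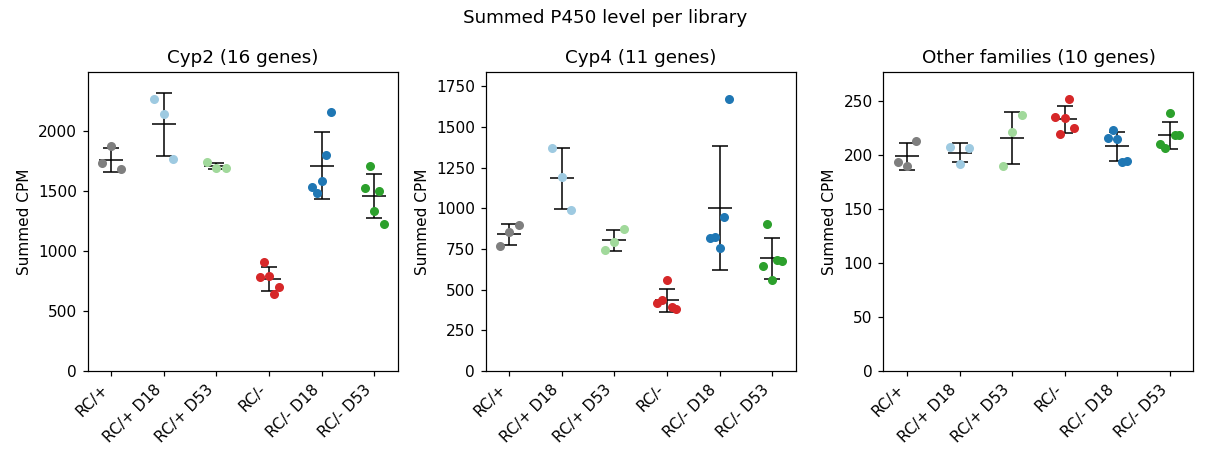
Summed CPM (vertical axis, from 0) of the 16 Cyp2, 11 Cyp4 and 10 other P450 genes in each library, by group, with 1 point per library and a bar and whiskers for mean ± SD (n = 3 or 5). The RC/- libraries lie lowest for Cyp2 (639 to 909 CPM) and Cyp4 (380 to 557 CPM), and the highest Cyp4 sum is 1672 CPM in RC/- D18 replicate 22.

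By limma-trend on log2 CPM, with Benjamini-Hochberg adjustment over 22570 genes and a call at an adjusted p below 0.05, 20 of the 37 genes (54.1%) differed between RC/- and RC/+, 8 higher and 12 lower. Over all genes tested 37.6% were called, 25.5% higher and 12.2% lower, next to 21.6% higher and 32.4% lower among the P450 genes. The higher share was thus near that of all genes. The libraries of the 2 groups did not overlap for 20 of the 37 genes, against 37.6% of all genes. The Cyp2 genes gave 8 lower and 0 higher of 16, the Cyp4 genes 3 lower and 4 higher of 11, and the other families 1 lower and 4 higher of 10. Of the 4 higher Cyp4 genes, Cyp4f39 and Cyp4f18 met the level limit only through cystic groups, so the higher counts partly reflect how genes were chosen. The median log2 fold change was -0.16 over the 37 genes and 0.14 over all genes. Scaling by TMM factors in place of total counts moved that all-gene median to 0.01, and gave 6 higher and 14 lower P450 genes (16.2% and 37.8%, next to 17% and 17.3% of all genes), with Cyp1b1 and Cyp39a1 no longer called higher and Cyp2j9 and Cyp4f13 called lower. Without library 16 the count was again 20, with Cyp2f2 in place of Cyp1b1.

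**Figure D3:**
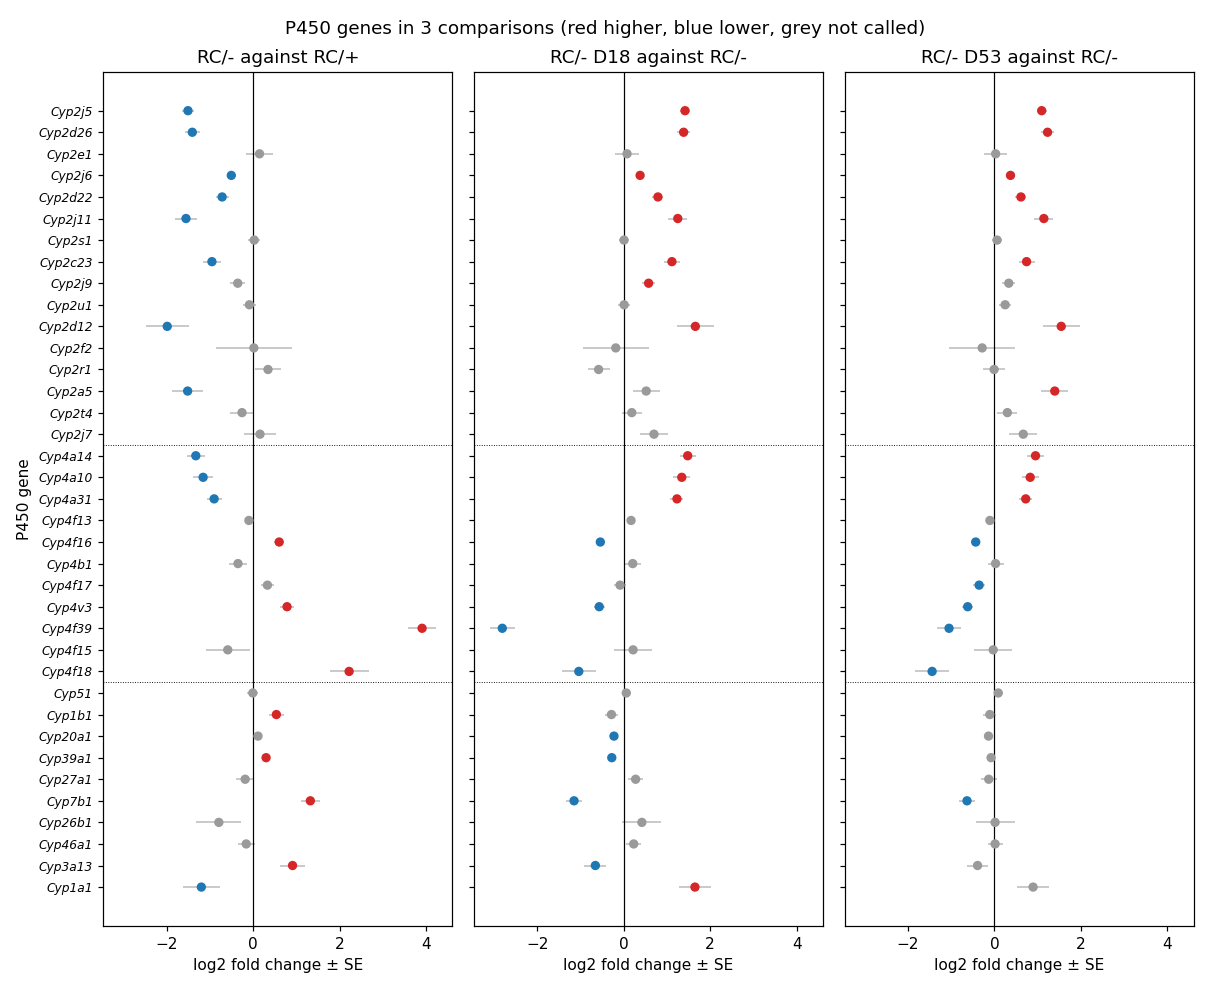
Log2 fold change ± SE (horizontal axis, 1 scale for all panels) of each P450 gene (vertical axis, by class and mean CPM) in RC/- against RC/+, RC/- D18 against RC/- and RC/- D53 against RC/-, from limma-trend; red is called higher, blue called lower, grey not called. The Cyp2 calls are all lower in the first panel (8 genes) and all higher in the other 2 (8 genes each); those 2 panels share the RC/- libraries with the first.

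Values of single libraries are given in the order of the replicate numbers, 4 to 6, 7 to 9 and 10 to 12 in the noncystic groups and 13 to 17, 18 to 22 and 23 to 27 in the cystic groups. Among the Cyp2j genes, which code for epoxygenases of arachidonic acid, Cyp2j5 was at 1009, 1019 and 922 CPM in RC/+, 1194.5, 981 and 883.5 CPM in RC/+ D18, and 1043, 958 and 971.5 CPM in RC/+ D53. In the cystic groups it was at 353, 416, 373, 262 and 342 CPM in RC/-, 811, 784, 915, 984.5 and 1167 CPM in RC/- D18, and 818, 781, 725, 821 and 572.5 CPM in RC/- D53. All 5 RC/- libraries were lower than every other library. The mean was 349 ± 56.2 CPM in RC/- against 983.5 ± 53.1 CPM in RC/+ (SD), a difference on the log2 scale of -1.51 ± 0.14 (SE, as after every log2 value here; adjusted p = 8.36e-09), which is 2.84-fold lower. Its neighbour Cyp2j11 was at 57.9, 56.8 and 51.1 CPM in RC/+, 81.5, 50.5 and 34.1 CPM in RC/+ D18, and 50.9, 55.05 and 52.9 CPM in RC/+ D53. The cystic libraries held 13.1, 24.2, 23.3, 15.7 and 20.04 CPM in RC/-, 36.5, 33.3, 42.6, 49.5 and 69.2 CPM in RC/- D18, and 51.1, 53.6, 42.7, 39.7 and 26.4 CPM in RC/- D53. The RC/- values lay below all others, and the log2 fold change against RC/+ was -1.55 ± 0.25 (adjusted p = 2.68e-05). Cyp2j6 fell by less, from 61.05 ± 1.34 to 43 ± 2.36 CPM (log2 difference -0.51 ± 0.06, adjusted p = 9.34e-07), and its libraries did not overlap. Cyp2j9 (-0.36, adjusted p = 0.112) and the scarce Cyp2j7 (0.16, adjusted p = 0.779) did not pass the test.

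The 3 Cyp2d genes belong to a subfamily of drug-metabolising enzymes, and all 3 fell. Cyp2d26, the second most abundant P450 gene, had values of 423, 528 and 432 CPM in the 3 RC/+ libraries and 212, 224, 176, 118 and 156 CPM in the 5 RC/- libraries, which is a log2 difference of -1.41 ± 0.17 (adjusted p = 4.84e-07), with library 16 the lowest. Cyp2d22 was at 45.7, 51.2 and 62.9 CPM in RC/+, 61.7, 66.3 and 70.4 CPM in RC/+ D18, and 43.98, 56.6 and 61.9 CPM in RC/+ D53. In cystic kidneys Cyp2d22 was at 34.03, 31.9, 30.7, 37.1 and 27.4 CPM in RC/-, 55.1, 64.3, 44.2, 46.6 and 72.3 CPM in RC/- D18, and 47.1, 60.5, 42.01, 46.4 and 51.3 CPM in RC/- D53. Its 5 RC/- libraries were the 5 lowest of the 24, and the log2 fold change against RC/+ was -0.72 ± 0.15 (adjusted p = 0.000408). The scarce Cyp2d12 was at 2.65, 5.35 and 2.57 CPM in RC/+, 6.31, 5.42 and 2.41 CPM in RC/+ D18, and 2.89, 2.37 and 2.35 CPM in RC/+ D53. Its cystic values were 1.32, 1.48, 1.39, 0.336 and 0.265 CPM in RC/-, 2.89, 3.12, 1.22, 2.13 and 5.19 CPM in RC/- D18, and 2.82, 4.64, 1.36, 2.17 and 2.13 CPM in RC/- D53. RC/- replicates 16 and 17 had under 0.34 CPM and the other 3 RC/- libraries 1.32 to 1.48 CPM. The log2 fold change against RC/+ was -1.99 ± 0.50 (adjusted p = 0.00253), the lowest of the 37.

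Cyp2c23, also named Cyp2c44, is an epoxygenase of the kidney. It was at 20.8, 22.03 and 15.7 CPM in RC/+, 29.5, 26.6 and 21.7 CPM in RC/+ D18, and 17.7, 17.8 and 20.8 CPM in RC/+ D53. The cystic libraries had 10.5, 12.2, 11.8, 6.04 and 10.4 CPM in RC/-, 16.9, 15.6, 21.1, 25.7 and 32.1 CPM in RC/- D18, and 16.4, 20.8, 15.7, 17.6 and 13.7 CPM in RC/- D53. Library 16 was the lowest of all, and the other 4 RC/- libraries, at 10.4 to 12.2 CPM, were still below every other library. The log2 fold change in RC/- against RC/+ was -0.95 ± 0.21 (adjusted p = 0.000898), and -0.78 without library 16. Cyp2a5, which hydroxylates coumarin, was near the limit, at 0.98, 1.19 and 1.36 CPM in RC/+, 0.827, 0.5298 and 0.312 CPM in RC/+ D18, and 0.788, 2.13 and 1.32 CPM in RC/+ D53. Cystic kidneys held 0.428, 0.3801, 0.278, 0.2099 and 0.575 CPM in RC/-, 0.613, 0.479, 0.589, 0.253 and 1.03 CPM in RC/- D18, and 0.713, 1.099, 1.1, 1.28 and 1.26 CPM in RC/- D53. RC/- did not overlap RC/+, and the log2 fold change was -1.52 ± 0.36 (adjusted p = 0.00174).

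The other 8 Cyp2 genes were not called in this comparison. Cyp2e1, which oxidises ethanol and small solvents, spread widely within groups. It was at 42.1, 76.2 and 77.5 CPM in RC/+, 97.7, 143 and 63.1 CPM in RC/+ D18, and 40.9, 51.3 and 57.3 CPM in RC/+ D53. Its cystic values were 65.2, 103, 67.5, 87.2 and 41.5 CPM in RC/-, 50.6, 60.5, 66.9, 106 and 97.9 CPM in RC/- D18, and 75.7, 131, 54.98, 58.9 and 56.1 CPM in RC/- D53. RC/- overlapped RC/+, and the difference on the log2 scale was 0.15 ± 0.31 (adjusted p = 0.754). Cyp2r1, a vitamin D hydroxylase, was scarce, at 0.653, 0.885 and 1.08 CPM in RC/+, 1.18, 0.652 and 1.43 CPM in RC/+ D18, and 0.788, 0.671 and 0.785 CPM in RC/+ D53. The cystic values were 1.75, 0.887, 0.834, 0.798 and 1.59 CPM in RC/-, 0.788, 0.9104, 0.746, 0.687 and 0.497 CPM in RC/- D18, and 1.2, 0.692, 1.36, 1.17 and 1.23 CPM in RC/- D53. RC/- overlapped RC/+ (0.34 ± 0.30, adjusted p = 0.393). Cyp2f2, a P450 of airway epithelium, was at 23.7 CPM in library 16 and at 0.0885 to 0.855 CPM in the other 4 RC/- libraries, against 0.682 to 0.980 CPM in RC/+. With library 16 its log2 fold change was 0.02 (adjusted p = 0.992), and without it -1.15 (adjusted p = 0.0432, the lowest of 18 alternatives that ranged to 1). Cyp2s1, Cyp2u1 and Cyp2t4 had log2 fold changes of 0.02, -0.09 and -0.26.

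**Figure D4:**
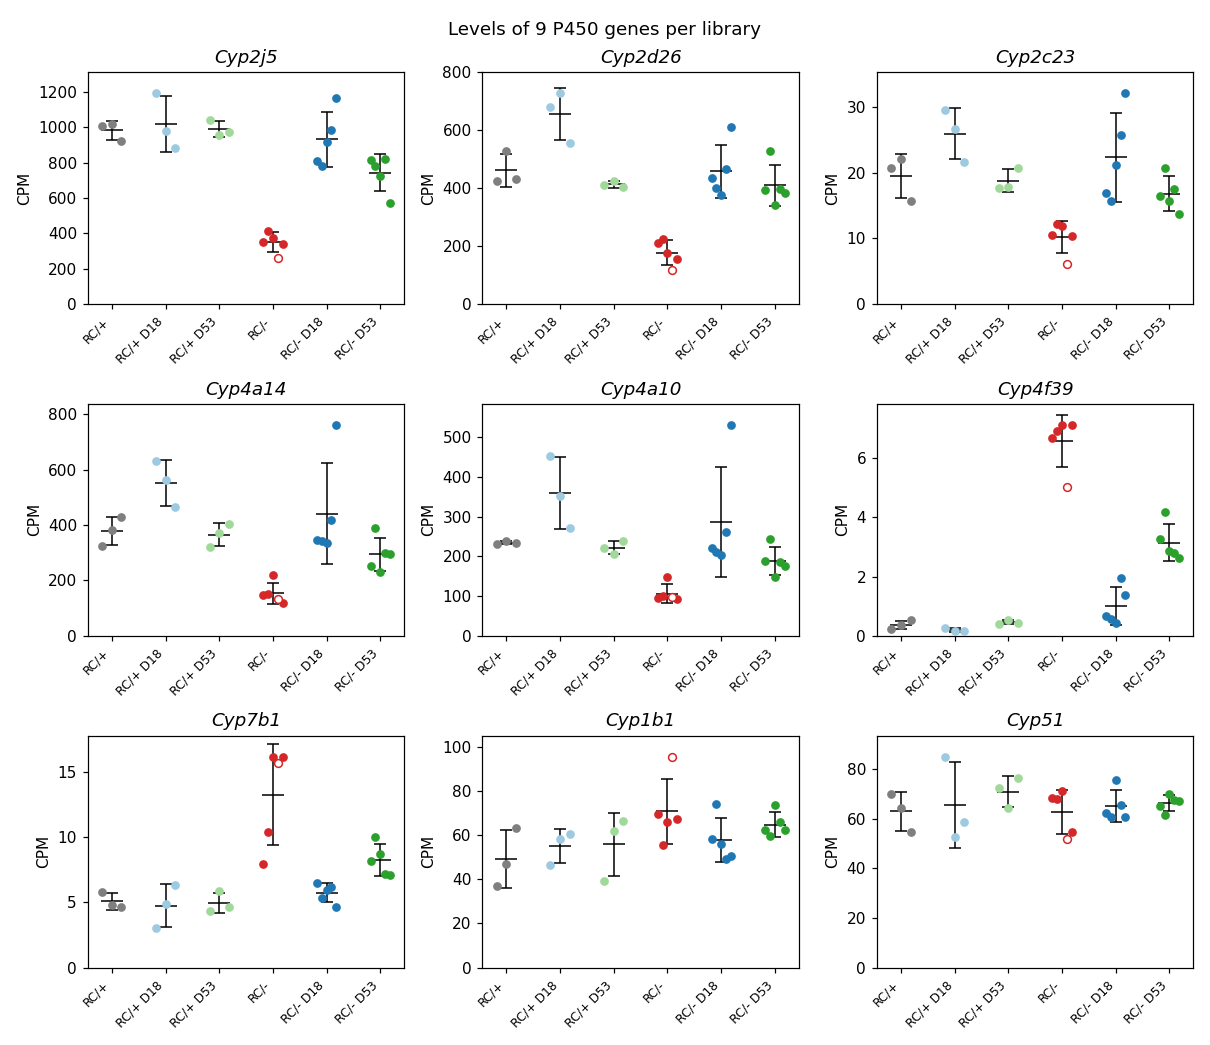
CPM (vertical axis, from 0) of 9 P450 genes in each library by group (horizontal axis), with 1 point per library, an open point for RC/- replicate 16, and a bar and whiskers for mean ± SD (n = 3 or 5). Cyp2j5, Cyp2d26, Cyp2c23 and both Cyp4a genes have their lowest means in RC/-, Cyp4f39 and Cyp7b1 have their highest means there, and Cyp51 lies at 51.9 to 84.9 CPM with all groups overlapping.

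The Cyp4 class was split by subfamily: the 3 Cyp4a genes fell and 4 of the Cyp4f and Cyp4v genes rose. Cyp4a enzymes hydroxylate fatty acids at their far end, and their genes are known targets of the nuclear receptor Ppara. Cyp4a14 was at 324, 383 and 428 CPM in RC/+, 630.1, 561 and 463 CPM in RC/+ D18, and 320.3, 373 and 403 CPM in RC/+ D53. In the cystic groups it was at 146, 149.7, 218, 131 and 120.3 CPM in RC/-, 346, 342, 337, 417 and 761 CPM in RC/- D18, and 254, 389, 232, 299.8 and 297 CPM in RC/- D53. Every RC/- library was lower than every library of the other groups, and RC/- D18 replicate 22 was the highest of all. The log2 fold change in RC/- against RC/+ was -1.33 ± 0.22 (adjusted p = 2.72e-05). Cyp4a10, its neighbour on chromosome 4, was at 231, 238 and 233 CPM in RC/+, 452, 352 and 271 CPM in RC/+ D18, and 220.5, 205.5 and 238 CPM in RC/+ D53. Cystic libraries held 94.8, 99.8, 148.5, 96.9 and 92.8 CPM in RC/-, 221, 212, 203, 262 and 531 CPM in RC/- D18, and 189, 243, 148, 186 and 177 CPM in RC/- D53. RC/- lay at 92.8 to 148.5 CPM and RC/+ at 231 to 238 CPM, which is a log2 difference of -1.16 ± 0.23 (adjusted p = 0.000233). For Cyp4a31, which shares long identical stretches with Cyp4a10, the noncystic values were 139, 161 and 159 CPM in RC/+, 219.8, 203 and 167 CPM in RC/+ D18, and 135, 145 and 156 CPM in RC/+ D53. The cystic values were 85.6, 91.1, 94.97, 71.6 and 67.7 CPM in RC/-, 168, 186, 144, 191 and 298 CPM in RC/- D18, and 133.5, 189, 111, 128.5 and 123 CPM in RC/- D53. RC/- was again below all other libraries, and the log2 fold change was -0.90 ± 0.17 (adjusted p = 0.000193). Cyp4b1, which adjoins the Cyp4a genes, was at 9.06, 10.2 and 17.02 CPM in RC/+, 11.9, 13.1 and 13.3 CPM in RC/+ D18, and 8.37, 14.5 and 14.2 CPM in RC/+ D53. It was at 9.49, 9.59, 7.98, 11 and 7.79 CPM in RC/-, 9.86, 11.98, 7.65, 9.22 and 15.4 CPM in RC/- D18, and 8.17, 11.9, 8.87, 9.01 and 8.73 CPM in RC/- D53. Its groups overlapped and it did not pass the test (-0.35 ± 0.21, adjusted p = 0.208).

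Cyp4f39 had the highest fold change of the 37 genes. Its product makes the very long hydroxylated fatty acids of the skin barrier, and its human counterpart is a gene of inherited scaling skin disease. It was at 0.245, 0.354 and 0.522 CPM in RC/+, 0.261, 0.163 and 0.178 CPM in RC/+ D18, and 0.413, 0.552 and 0.442 CPM in RC/+ D53, that is, 4 to 14 reads a library. In the cystic groups it was at 6.67, 6.93, 7.11, 5.04 and 7.12 CPM in RC/-, 0.657, 0.575, 0.432, 1.95 and 1.39 CPM in RC/- D18, and 3.27, 4.19, 2.86, 2.796 and 2.63 CPM in RC/- D53. The 5 RC/- libraries were the 5 highest, with library 16 the lowest of them, the 5 RC/- D53 libraries came next, and the RC/- D18 libraries were below both. The log2 fold change in RC/- against RC/+ was 3.91 ± 0.33 (adjusted p = 2.66e-09). Cyp4f18, which inactivates leukotrienes in neutrophils, was at 0.286, 0.133 and 0.281 CPM in RC/+, 0.479, 0.285 and 0.446 CPM in RC/+ D18, and 0.638, 0.158 and 0.245 CPM in RC/+ D53. Its cystic values were 0.684, 0.633, 1.43, 2.897 and 2.26 CPM in RC/-, 0.832, 1.102, 0.667, 0.362 and 0.355 CPM in RC/- D18, and 0.486, 0.611, 0.5498, 0.345 and 0.289 CPM in RC/- D53. The spread in RC/- was wide, library 16 was the highest, and the log2 fold change was 2.22 ± 0.45 (adjusted p = 0.000368). Cyp4v3, which hydroxylates fatty acids and whose human counterpart is mutated in a retinal dystrophy, was at 7.19, 7.74 and 6.82 CPM in RC/+, 6.49, 5.99 and 7.72 CPM in RC/+ D18, and 6.68, 5.72 and 7.36 CPM in RC/+ D53. Cystic kidneys had 9.02, 11.9, 12.6, 15.03 and 15.2 CPM in RC/-, 7.58, 7.95, 8.36, 10.2 and 8.28 CPM in RC/- D18, and 8.79, 9.77, 7.26, 6.97 and 8.15 CPM in RC/- D53. RC/- was above RC/+ in all 5 libraries (0.78 ± 0.15, adjusted p = 0.000229). Cyp4f16 rose from 17.9 ± 2.04 to 27.2 ± 1.78 CPM (0.60 ± 0.12, adjusted p = 0.000346). Cyp4f13 (-0.10), Cyp4f15 (-0.59) and Cyp4f17 (0.33), from the same cluster on chromosome 17, were not called.

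Of the 10 genes in other families, Cyp7b1, an oxysterol hydroxylase of the acidic pathway of bile acid synthesis, had the largest rise. It was at 5.84, 4.78 and 4.62 CPM in RC/+, 3.05, 4.85 and 6.34 CPM in RC/+ D18, and 4.35, 5.84 and 4.66 CPM in RC/+ D53. In cystic kidneys it was at 7.91, 10.4, 16.2, 15.7 and 16.1 CPM in RC/-, 6.53, 5.37, 5.92, 6.22 and 4.66 CPM in RC/- D18, and 8.204, 10.1, 8.72, 7.18 and 7.11 CPM in RC/- D53. RC/- replicates 15, 16 and 17 were at 15.7 to 16.2 CPM and replicates 13 and 14 at 7.91 and 10.4 CPM, all above RC/+. The log2 fold change was 1.32 ± 0.22 (adjusted p = 4.23e-05). Cyp39a1, another oxysterol hydroxylase, rose slightly, from 25.1 ± 3.13 to 30.7 ± 1.63 CPM (0.30 ± 0.09, adjusted p = 0.0137), a call that ended under TMM scaling and without RC/+ replicate 5 or 6. Cyp3a13, of the main drug-metabolising subfamily, was at 1.18, 1.11 and 1.004 CPM in RC/+, 0.479, 0.652 and 1.16 CPM in RC/+ D18, and 1.46, 1.81 and 1.37 CPM in RC/+ D53. Its cystic values were 2.22, 1.48, 1.95, 2.14 and 3.19 CPM in RC/-, 1.71, 1.49, 1.29, 1.48 and 0.817 CPM in RC/- D18, and 1.07, 1.34, 1.72, 1.62 and 2.63 CPM in RC/- D53. RC/- was above RC/+ without overlap (0.91 ± 0.29, adjusted p = 0.0153), and the call was lost without RC/+ replicate 6.

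Cyp1a1 and Cyp1b1, both known targets of the aryl hydrocarbon receptor Ahr, moved in opposite directions. Cyp1a1 was scarce, at 0.694, 0.796 and 0.562 CPM in RC/+, 0.697, 1.304 and 0.5802 CPM in RC/+ D18, and 0.976, 0.947 and 0.736 CPM in RC/+ D53. In cystic kidneys it was at 0.299, 0.253, 0.357, 0.252 and 0.133 CPM in RC/-, 1.05, 1.49, 0.471, 0.687 and 1.49 CPM in RC/- D18, and 0.454, 0.611, 0.733, 1.21 and 0.144 CPM in RC/- D53. It fell in RC/- (-1.20 ± 0.42, adjusted p = 0.0285), a call lost without RC/+ replicate 4 or 5 or RC/- replicate 17. Cyp1b1, also a gene of mesenchymal cells, was at 37.04, 47.1 and 62.98 CPM in RC/+, 46.4, 58.1 and 60.5 CPM in RC/+ D18, and 39.2, 61.8 and 66.1 CPM in RC/+ D53. Cystic values were 69.4, 55.5, 65.7, 95.4 and 67.2 CPM in RC/-, 58.04, 73.98, 56.1, 49.3 and 50.7 CPM in RC/- D18, and 62.4, 59.6, 73.7, 65.8 and 62.3 CPM in RC/- D53. The groups overlapped and library 16 was the highest of all. The log2 fold change was 0.54 ± 0.18 (adjusted p = 0.0184), and 0.42 without library 16 (adjusted p = 0.0554, within a range of 0.00429 to 0.169 over 19 alternatives), and the call was also lost without RC/+ replicate 4 or 5.

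The sterol and retinoid genes that were not called overlapped between RC/- and RC/+. Cyp51, the lanosterol demethylase of cholesterol synthesis, was at 69.9, 64.1 and 54.7 CPM in RC/+, 84.9, 52.7 and 58.7 CPM in RC/+ D18, and 72.2, 64.2 and 76.2 CPM in RC/+ D53. The cystic libraries had 68.4, 67.9, 71.02, 51.9 and 54.6 CPM in RC/-, 62.2, 60.6, 75.7, 65.6 and 60.8 CPM in RC/- D18, and 65.2, 61.5, 69.8, 67.7 and 67.04 CPM in RC/- D53. Its log2 fold change was -0.01 ± 0.13 (adjusted p = 0.972). Cyp27a1, the mitochondrial sterol hydroxylase, was at 12.4, 13.8 and 20.1 CPM in RC/+, 12.4, 16.5 and 17.2 CPM in RC/+ D18, and 10.2, 16.2 and 20.9 CPM in RC/+ D53. It was at 11.6, 11.4, 11.6, 16.5 and 16.3 CPM in RC/-, 16.9, 18.2, 11.97, 13.7 and 21.1 CPM in RC/- D18, and 10.7, 13.2, 11.6, 11.7 and 13.6 CPM in RC/- D53. The groups overlapped (-0.18 ± 0.21, adjusted p = 0.523). Cyp26b1, which breaks down retinoic acid, was at 4.25, 8.27 and 8.27 CPM in RC/+, 10.1, 2.65 and 4.999 CPM in RC/+ D18, and 4.02, 9.94 and 7.26 CPM in RC/+ D53. Cystic kidneys held 10.7, 9.84, 1.55, 3.15 and 1.46 CPM in RC/-, 6.001, 4.89, 4.28, 4.63 and 5.86 CPM in RC/- D18, and 2.82, 2.73, 4.84, 5.695 and 3.86 CPM in RC/- D53. RC/- replicates 13 and 14 were at 10.7 and 9.84 CPM and the other 3 at 1.46 to 3.15 CPM, so RC/- held both the lowest and the highest of the 24 values (-0.79 ± 0.52, adjusted p = 0.247). Cyp46a1, the cholesterol hydroxylase of brain, and Cyp20a1, which has no known substrate, had log2 fold changes of -0.16 and 0.11.

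The next comparisons ask how cystic kidneys with the miR-17 motif deleted differed from unedited cystic kidneys. In RC/- D18 against RC/-, the Cyp2 sum was 1712 ± 276 CPM (SD, n = 5) against 766 ± 102 CPM, and the Cyp4 sum 1003 ± 381 against 436 ± 70.7 CPM. The other families were at 208 ± 13.4 against 233 ± 12.3 CPM. The test called 20 of the 37 genes (54.1%), 12 higher and 8 lower. Of all genes 41.2% were called, 14.3% higher and 26.9% lower, next to 32.4% and 21.6% of the P450 genes, and the lower share was near that of all genes. The groups did not overlap for 15 of the 37 (40.5%), against 27.8% of all genes. Cyp4f39 and Cyp4f18, both called lower, met the level limit only through cystic groups. The lower counts thus partly reflect how genes were chosen. The median log2 fold change was 0.21 over the 37 genes and -0.10 over all genes. Scaling by TMM factors gave 13 higher and 4 lower (35.1% and 10.8%, next to 19.7% and 19.5% of all genes), and without library 16 the count was 20.

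Higher in RC/- D18 than in RC/- were 8 Cyp2 genes, the 3 Cyp4a genes and Cyp1a1. Cyp2j5 was higher in all 5 libraries (1.42 ± 0.12, adjusted p = 2.41e-09), as were Cyp2d26 (1.38 ± 0.15, adjusted p = 6.53e-08) and Cyp2j11 (1.25 ± 0.22, adjusted p = 5.63e-05). The 3 Cyp4a genes rose by 1.48 (Cyp4a14), 1.34 (Cyp4a10) and 1.23 (Cyp4a31) on the log2 scale, also without replicate 22, the library in which Cyp4a14 reached 761 CPM. Cyp2c23 rose by 1.11, Cyp2d22 by 0.79, Cyp2d12 by 1.66, Cyp2j9 by 0.57 and Cyp2j6 by 0.38. Cyp1a1, the Ahr target, was 3.13-fold higher (1.65 ± 0.37, adjusted p = 0.000824).

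Lower in RC/- D18 were Cyp4f16, Cyp4f18, Cyp4f39, Cyp4v3, Cyp20a1, Cyp39a1, Cyp3a13 and Cyp7b1. The steepest was Cyp4f39, the skin-lipid hydroxylase, which was 7.02-fold lower (-2.81 ± 0.29, adjusted p = 3.59e-08) and without overlap. Cyp7b1, the oxysterol hydroxylase, was next (-1.15 ± 0.19, adjusted p = 3.37e-05). Cyp4f18 fell by 1.04, Cyp3a13 by 0.66, Cyp4v3 by 0.57, Cyp4f16 by 0.54, Cyp39a1 by 0.28 and Cyp20a1 by 0.23 on the log2 scale. The calls of Cyp20a1, Cyp39a1, Cyp3a13 and Cyp4f18 were lost under TMM scaling and with libraries 20 to 27 as a covariate, and those of Cyp20a1, Cyp3a13 and Cyp4f18 without library 16. Leaving out RC/- replicate 13, 15 or 17 or RC/- D18 replicate 19, 20, 21 or 22 also ended at least 1 of these 3 calls. Without library 16, Cyp2j7 (0.87) and Cyp2r1 (-0.69) were called. Cyp2f2 had no stable direction: its log2 fold change was -0.19 (adjusted p = 0.87) with library 16 and 0.98 (adjusted p = 0.0471) without it, while edgeR with library 16 called it lower (-2.54, adjusted p = 0.0246). Cyp2e1 (0.07), Cyp51 (0.06), Cyp27a1 (0.27), Cyp26b1 (0.42), Cyp1b1 (-0.29), Cyp4b1 (0.21) and Cyp2a5 (0.52) did not pass.

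In RC/- D53 against RC/-, the Cyp2 sum was 1458 ± 186 CPM (SD, n = 5), the Cyp4 sum 694 ± 126 CPM and the sum of the other families 218 ± 12.5 CPM. The test called 17 of the 37 genes (45.9%), 11 higher and 6 lower. Of all genes 30.2% were called, 11.3% higher and 18.9% lower, next to 29.7% and 16.2% of the P450 genes. The lower share was thus near that of all genes. The groups did not overlap for 12 of the 37 (32.4%), against 18.8% of all genes. Cyp4f39 and Cyp4f18 were again among the lower genes and had met the level limit only through cystic groups. The median log2 fold change was 0.03 over the 37 and -0.08 over all genes. All of RC/- D53 and none of RC/- were among libraries 20 to 27, so in this comparison the difference cannot be told apart from that set of libraries except through RC/- D18. With the set as a covariate 6 of the 37 genes were called, 4 higher (Cyp2d22, Cyp2d26, Cyp2j5 and Cyp2j6) and 2 lower (Cyp4f39 and Cyp4v3).

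Cyp2j5 was 2.13-fold higher in RC/- D53 than in RC/- (1.09 ± 0.12, adjusted p = 3.12e-07) and Cyp2d26 2.34-fold (1.23 ± 0.15, adjusted p = 9.2e-07). The remaining rises in the Cyp2 class were Cyp2d12 (1.54), Cyp2a5 (1.40), Cyp2j11 (1.14), Cyp2c23 (0.74), Cyp2d22 (0.61) and Cyp2j6 (0.37). In the Cyp4 class Cyp4a14 (0.95), Cyp4a10 (0.83) and Cyp4a31 (0.72) rose. Cyp4f39 fell by 1.05 on the log2 scale (adjusted p = 0.0067), Cyp4f18 by 1.44, Cyp4v3 by 0.62, Cyp4f16 by 0.43, Cyp4f17 by 0.35 and Cyp7b1 by 0.63. The Cyp4f17 call was lost under TMM scaling and without RC/- replicate 14, 15, 16 or 17 or RC/- D53 replicate 23, 26 or 27. Cyp4f39 was at 3.15 ± 0.628 CPM in this group, against 1 ± 0.648 CPM in RC/- D18. Of the other families only Cyp7b1 was called by limma-trend, and Cyp1a1 (0.89, adjusted p = 0.07) and Cyp3a13 (-0.39, adjusted p = 0.267) were not. Cyp1a1 was called higher by edgeR (1.34, adjusted p = 0.0243), by DESeq2 (1.35, adjusted p = 0.0126), and by limma-trend without RC/- D53 replicate 27. In all, edgeR called 19 P450 genes here and DESeq2 18. With library 16 included, edgeR called Cyp2f2 lower (-2.75, adjusted p = 0.0216), while limma-trend without that library gave 0.88 (adjusted p = 0.0948).

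Without the cystic genotype, the deletion of the motif changed no P450 gene past the threshold. By limma-trend 0 of the 37 were called in RC/+ D18 against RC/+ and 0 in RC/+ D53 against RC/+, where 0.00443% (1 gene) and 0% of all genes were called. Of the 37, 5 and 1 had an unadjusted p below 0.05, and edgeR and DESeq2 also called 0 in both. The RC/+ D18 libraries had higher means of Cyp4a14 (551 against 378 CPM), Cyp4a10 (358 against 234 CPM) and Cyp2d26 (655 against 461 CPM) than RC/+, with adjusted p of 0.983, 0.983 and 0.983. For Cyp4a14 the libraries did not overlap (463 to 630 against 324 to 428 CPM). Nor did they for Cyp4a10 (271 to 452 against 231 to 238 CPM) or Cyp2d26 (556 to 729 against 423 to 528 CPM). Cyp2a5 went the other way, also without overlap (0.312 to 0.827 against 0.98 to 1.36 CPM).

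Within each edited line, 1 P450 gene passed the test between cystic and noncystic kidneys. Cyp4f39 was higher in RC/- D18 than in RC/+ D18 (1.76 ± 0.33, adjusted p = 0.0159) and in RC/- D53 than in RC/+ D53 (2.54 ± 0.33, adjusted p = 5.16e-05), without overlap in either line. Of all genes 0.266% were called within D18 and 2.6% within D53. Cyp4f39 met the level limit only through cystic groups, so its call in each line partly reflects how genes were chosen. The D18 call was lost without RC/+ D18 replicate 8, with only the 2 groups fitted and without libraries 20 to 27, and a covariate for those libraries ended the call in both lines. All of RC/- D53 and none of RC/+ D53 are in that set, and within D53 8 of 8 skeletal muscle and 8 of 12 macrophage markers were also higher; their part in the Cyp4f39 difference was not tested. The comparisons within the edited lines share no library with RC/- against RC/+. Over all 37 genes, 24 in D18 and 28 in D53 had a log2 fold change of the same sign as in the unedited line, with median sizes of 0.21 and 0.25 against 0.59. Of the 20 genes called in the unedited line, which were selected for a large difference there, 18 had a log2 fold change of the same sign in D18 and 20 in D53, with median sizes of 0.25 in both against 1.18 in the unedited line. For the 12 genes lower in RC/- the medians were -0.23 within D18 and -0.24 within D53, against -1.26, and for the 8 higher ones 0.33 and 0.28 against 0.85. Cyp2j5 had -0.13 ± 0.14 within D18 and -0.43 ± 0.14 within D53, Cyp4a14 -0.39 ± 0.22 and -0.33 ± 0.22, and Cyp7b1 0.32 ± 0.22 and 0.73 ± 0.22, none of them past the threshold.

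**Figure D5:**
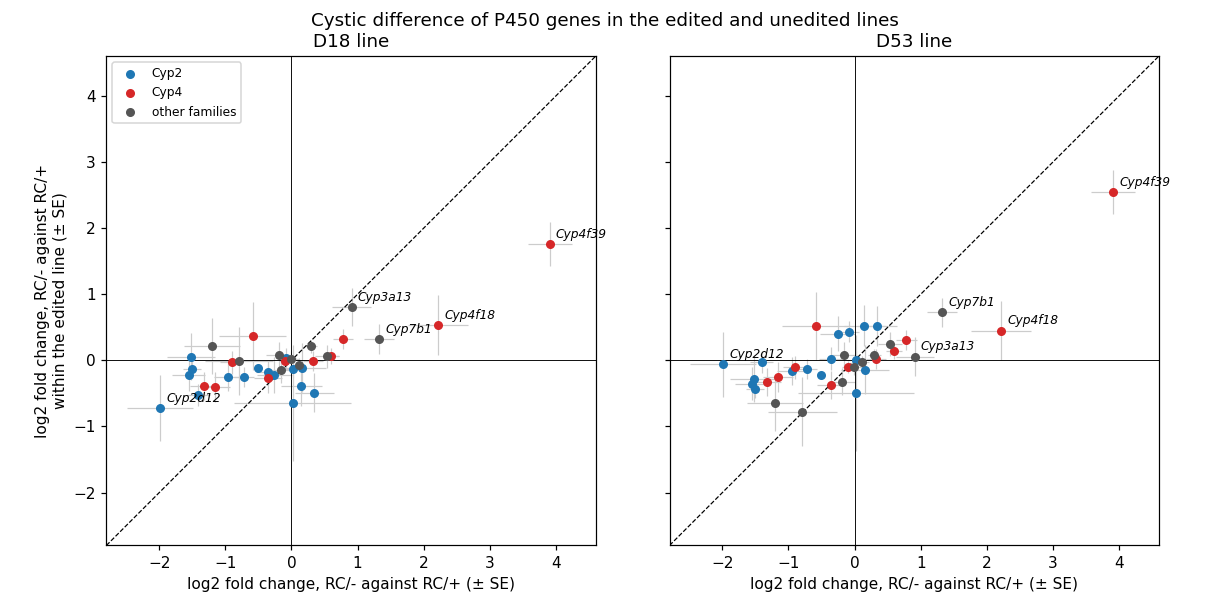
Log2 fold change ± SE of RC/- against RC/+ within the D18 line (left) or the D53 line (right) on the vertical axis, against that in the unedited line on the horizontal axis, for the 37 P450 genes; the dashed line marks equal values and colours mark the classes. The 20 genes called in the unedited line have a median size of 0.25 on the vertical axis in both panels, and Cyp4f39, at 3.91 in the unedited line, stands at 1.76 in D18 and 2.55 in D53.

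The interaction test asks whether the cystic difference in an edited line was unequal to that in the unedited line. For D18 it called 10 of the 37 genes (27.03%), against 17.1% of all genes. The cystic difference was less negative in D18 for Cyp2j5 (interaction 1.38 ± 0.20, adjusted p = 4.27e-05), Cyp2j11, Cyp2j6, Cyp2d26, Cyp4a14 and Cyp4a31. It was less positive for Cyp4f39 (interaction -2.15 ± 0.47, adjusted p = 0.00239), Cyp7b1 and Cyp4f16. Cyp4f39 met the level limit only through cystic groups. For Cyp2a5 the cystic difference was 0.06 within D18, against -1.52 in the unedited line. RC/+ D18 was low in Cyp2a5 (-1.06 against RC/+, not called), and RC/- D18 against RC/- did not pass (0.52). For D53 the interaction test called 6 of the 37 (16.2%), against 11.3% of all genes: Cyp2d26 (1.38 ± 0.24, adjusted p = 0.00079), Cyp2j5 (1.08 ± 0.20, adjusted p = 0.00101), Cyp2j11, Cyp2j6, Cyp4a14 and Cyp4a31, each less negative in D53. These counts depended on the libraries: leaving out 1 at a time gave 3 (RC/+ D18 replicate 9) to 12 calls for D18 and 2 to 8 for D53, and a covariate for libraries 20 to 27 left 3 and 0. Without library 16 there were 7 for D18, with Cyp2a5, Cyp4a14 and Cyp7b1 lost, and 3 for D53, with Cyp2j6, Cyp4a14 and Cyp4a31 lost.

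Between the edited cystic groups Cyp4f39 alone passed the limma-trend test. It was higher in RC/- D53 than in RC/- D18 (1.76 ± 0.29, adjusted p = 0.0069), at 2.63 to 4.19 against 0.432 to 1.95 CPM. Of all genes 0.266% were called. Next by size were Cyp2a5 (0.88, adjusted p = 0.252) and Cyp1a1 (-0.75, adjusted p = 0.381), which did not pass. An unadjusted p below 0.05 was found for 11 of the 37 genes, and DESeq2 also called Cyp4f13.

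Genes that work with P450 enzymes moved in part, and their counts stand next to 25.5% higher and 12.2% lower of all genes in RC/- against RC/+, 14.3% and 26.9% in RC/- D18 against RC/-, and 11.3% and 18.9% in RC/- D53 against RC/-. Of 8 redox partners, 3 fell in RC/- against RC/+ and 2 rose, the latter a share near that of all genes. Por, the reductase of the microsomal enzymes, averaged 138 CPM in RC/- against 213 CPM in RC/+ (log2 fold change -0.63 ± 0.13, adjusted p = 0.000459), and cytochrome b5 (Cyb5a) at 181 and 282 CPM (-0.64 ± 0.08, adjusted p = 4.07e-07). Cyb5r3, a reductase of cytochrome b5, rose from 152 to 247 CPM (0.70 ± 0.08, adjusted p = 1.86e-07). In RC/- D18 against RC/-, 3 of the 8 rose and 2 fell, and in RC/- D53 3 rose and 1 fell. The median log2 fold change of the 8 was -0.04, -0.01 and -0.02 in the 3 comparisons, next to 0.14, -0.10 and -0.08 over all genes.

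Of 10 genes of haem synthesis and breakdown, 4 fell in RC/- against RC/+ (Uros, Urod, Cpox and Fech). Another 2 rose (Alad and Hmox1, also near the share of all genes), and the median log2 fold change was -0.16. Hmox1, the inducible haem oxygenase, was at 34.5 CPM in RC/- against 13.6 CPM in RC/+ (1.31 ± 0.22, adjusted p = 4.15e-05), and Cpox at 58.03 against 86.4 CPM (-0.58 ± 0.10, adjusted p = 5.22e-05). Fech, which inserts the iron, was at 75.5 against 99.4 CPM (-0.40 ± 0.07, adjusted p = 4.64e-05). In RC/- D18 and in RC/- D53 against RC/-, 5 of the 10 were higher and 2 lower, with medians of 0.19 and 0.15. Of 12 epoxide and eicosanoid enzymes, 5 rose and 1 fell in RC/-, with a median of 0.41. The one that fell was Ephx2, the soluble epoxide hydrolase that acts on the products of the epoxygenases, at 41.95 against 64.7 CPM (-0.63 ± 0.14, adjusted p = 0.000949). Ptgs1, a cyclooxygenase, rose from 37.2 to 64.2 CPM (0.79 ± 0.09, adjusted p = 9.82e-08), and Ltc4s, a leukotriene synthase, from 0.714 to 1.49 CPM. In RC/- D18 against RC/- 2 of the 12 were higher and 3 lower, and in RC/- D53 1 higher and 4 lower, with medians of -0.21 and -0.38.

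Nuclear and xenobiotic receptors, several of which control P450 genes, fell in 9 of 15 cases in RC/- against RC/+ (12.2% of all genes) and rose in 1 (Ahr; 25.5% of all genes), with a median log2 fold change of -0.46. Hnf4a, a regulator of proximal tubule and liver genes that is also on the list of proximal tubule markers, averaged 215 CPM in RC/- against 493 CPM in RC/+ (-1.22 ± 0.13, adjusted p = 1.21e-07). The bile acid receptor gene Nr1h4 was at 30.97 and 59.8 CPM (-0.94 ± 0.09, adjusted p = 2.66e-08), and Nr1i2, the pregnane X receptor gene, at 5.24 and 10.99 CPM (-1.07 ± 0.13, adjusted p = 3.41e-07). Against RC/-, 8 of the 15 were higher and 1 lower in RC/- D18 (median 0.48), and 7 higher and 1 lower in RC/- D53 (median 0.28). Of 30 other phase 1 and phase 2 enzymes of drug metabolism, 29 were tested, and 13 fell and 3 rose in RC/-, with a median of -0.50. The flavin monooxygenase Fmo2 was at 88.4 against 283 CPM (-1.69 ± 0.14, adjusted p = 2.64e-09), Fmo1 at 142 against 397 CPM (-1.51 ± 0.16, adjusted p = 5.26e-08), and the glycosyltransferase Ugt3a2 at 115 against 337 CPM (-1.59 ± 0.18, adjusted p = 1.39e-07). In RC/- D18 against RC/- 14 of the 29 were higher and 5 lower (median 0.54), and in RC/- D53 13 higher and 4 lower (median 0.56).

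Several lists of cell type markers also differed. Their counts stand next to the shares of all genes called. These were 25.5% higher and 12.2% lower in RC/- against RC/+. In RC/- D18 against RC/- they were 14.3% and 26.9%, and in RC/- D53 against RC/- 11.3% and 18.9%. All 15 proximal tubule markers were lower in RC/- than in RC/+, with a median log2 fold change of -1.44 and summed levels of 3129 to 7148 against 13594 to 14789.8 CPM. The sums were 11985 to 16869 CPM in RC/- D18 and 10182 to 12509 CPM in RC/- D53, and all 15 were higher than in RC/- in both comparisons (medians 1.47 and 1.09). All 12 macrophage markers were higher in RC/- than in RC/+ (median 1.57; sums of 667 to 1222 against 328 to 342 CPM) and lower in both edited cystic groups than in RC/- (medians -1.24 and -0.90). Of 8 stromal markers 5 were higher in RC/- (median 1.102), and 6 and 4 were lower in RC/- D18 and RC/- D53 than in RC/-. Of 6 endothelial markers 4 were lower in RC/- (median -0.46), and 4 and 3 were higher in the edited cystic groups. Of 10 hepatocyte markers 3 were higher in RC/- than in RC/+, a share near that of all genes. Their sums of 73.8 to 224 CPM in RC/- and 74.7 to 248 CPM in RC/- D53 overlapped the other groups. Of 6 adipocyte markers 2 (Lep and Retn) were higher in RC/- than in the other 3 groups compared. The median of the 6 against RC/+ was -0.87, and their sums ran from 4.49 to 331 CPM in RC/- and from 54.9 to 134 CPM in RC/+. Of 7 adrenal cortex markers tested 4 were higher in RC/-, which holds library 16. Of 8 skeletal muscle markers 0 were called in RC/- against RC/+, and 6 and 8 were higher in RC/- D18 and RC/- D53 than in RC/-. The part of these cells and of the muscle and adrenal RNA in the P450 differences was not tested.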

How the data were processed

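Total RNA from whole kidneys was sequenced, and the deposited table holds read counts per gene, made by the authors by trimming with Trim Galore 0.6.3 and alignment with STAR 2.5.3a (versions per the submitters' processing notes). The counts are not normalized. The study's methods name the gene count mode of STAR, which counts uniquely mapped reads only. Which strand setting was used is not given in the sources used here. The annotation used here for sequences and exon overlap (GENCODE M21) is not the Ensembl release of the counts. Values are CPM by total counts. Differences were tested with limma-trend (limma 3.58.1, R 4.3.3) on log2 CPM with a prior count of 2, in 1 fit of all 6 groups over 22570 genes with mean log2 CPM of at least -3, with Benjamini-Hochberg adjustment and a threshold of 0.05. This differs from a count model, and edgeR 4.0.16 (quasi-likelihood) and DESeq2 1.42.0 were run as alternatives, with other scaling, filters, prior count and covariates, and with each library left out. The code was tested on simulated data. Python 3.11.15, numpy 2.4.6 and pandas 2.3.3 were used for the descriptions.

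Groups came from the sample labels. Nothing states the litters, so p-values measure the spread between these mice. Among 39 pairs of libraries within groups chi-square divided by its degrees of freedom ranged from 8.44 to 48.2, so none was a copy of another. The set of P450 genes, the partner and marker lists and the libraries of interest were chosen with earlier results of these data known. Values in every library are given for members with a known kidney role and for the 3 called members with the largest rise and the 3 with the largest fall in RC/- against RC/+ in each class (Cyp2, Cyp4, other). Also named are the 3 members per class with the highest CPM per kb, those called in a noncystic, within-line or D53 against D18 comparison, and 2 genes on each side of the 0.5 CPM limit. From the other lists the 3 genes with the lowest adjusted p are named, with marker lists given by counts. Cyp2f2, Cyp2j6, Cyp2j9, Cyp2s1, Cyp2u1, Cyp39a1, Cyp46a1 and the Cyp4f genes other than Cyp4f18 and Cyp4f39 were named after their values were seen.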

Additional observations from a re-analysis of the deposited data

Results flagged for a closer look

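Only the 26 genes named by rule were screened. Over their 78 gene and group combinations of 5 libraries, 8 had a library whose gap to the rest passed Dixon's 95% value. Chance flags about 1 in 20. In RC/- D53, replicate 24 was the highest for Cyp2e1 (131.0 CPM, the others 55.0 to 75.7) and Cyp4b1 (11.93 CPM, the others 8.17 to 9.01) and the lowest for Cyp2r1 (0.692 CPM, the others 1.17 to 1.36), and replicate 25 was the highest for Cyp20a1 (32 CPM, the others 26.04 to 27.5). In RC/- D18, replicate 22 was the highest for Cyp4a10 (530.7 CPM, the others 203 to 262) and Cyp4a14 (761.4 CPM, the others 337 to 417). In RC/-, replicate 15 was the highest for Cyp4a10 (148.5 CPM, the others 92.8 to 99.8), and replicate 16 was the lowest for Cyp4f39 (5.038 CPM, the others 6.67 to 7.12). Cyp2f2 was not among the 26 genes, and RC/- replicate 16 was far the highest for it (23.68 CPM, the others 0.0885 to 0.855).

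The cystic difference was unequal between the D18 line and the unedited line for 10 genes by the interaction term of limma-trend. Among the genes chosen by rule, the interaction was 1.574 for Cyp2a5, 0.880 for Cyp2d26, 1.335 for Cyp2j11, 1.375 for Cyp2j5, 0.937 for Cyp4a14, 0.874 for Cyp4a31, -2.150 for Cyp4f39 and -1.001 for Cyp7b1 on the log2 scale, with adjusted p from 4.27e-05 (Cyp2j5) to 0.0353 (Cyp2a5). For the D53 line 6 genes passed, with 1.380 for Cyp2d26, 1.203 for Cyp2j11, 1.082 for Cyp2j5, 0.998 for Cyp4a14 and 0.796 for Cyp4a31, and adjusted p from 0.00079 (Cyp2d26) to 0.0362 (Cyp4a31).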

How the results depend on the processing

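Counts of called P450 genes in RC/- against RC/+ (20) and RC/- D18 against RC/- (20) stayed within 1.5 times under every alternative, at 17 to 20 in both when 1 library was left out. RC/- D53 against RC/- (17; 16 to 17 with 1 left out) came to 6 with libraries 20 to 27 as a covariate. Cyp4f39 within D18 was lost (0 calls) with that covariate, with only the 2 groups fitted and without libraries 20 to 27, and gave 0 to 1 with 1 library left out. Within D53 (1) the count was 2 under TMM factors, DESeq2 size factors, a filter of mean log2 CPM of at least 0 and edgeR, 3 with DESeq2 and with only those groups fitted, 0 with the covariate, and 1 to 2 with 1 library left out. RC/- D53 against RC/- D18 (1) gave 2 with DESeq2. The D18 interaction (10) came to 3 with the covariate and 5 without libraries 20 to 27, and to 3 to 12 with 1 library left out (6 without RC/+ replicate 5 or 6 or RC/+ D18 replicate 8, 3 without RC/+ D18 replicate 9). The D53 interaction (6) came to 2 with no filter, 0 with the covariate, and 2 to 8 with 1 library left out (2 without RC/+ replicate 5, RC/+ D53 replicate 10 or 11 or RC/- D53 replicate 24, 3 without RC/+ D53 replicate 12, RC/- replicate 16 or RC/- D53 replicate 23). The cause was not tested. Of 76 calls of P450 genes over all comparisons, 41 held under every alternative run for them, 35 were lost under at least 1 and 0 changed direction. Of 294 gene and comparison pairs that were not called, 114 changed sign under at least 1 alternative, and 2, both Cyp2f2, were then called without library 16. No paired analysis was possible because no replicate number occurs in more than 1 group. Genes near 0.5 CPM rest on few reads, which limits Cyp2a5, Cyp1a1, Cyp2j7 and Cyp4f18.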
